A study of Mus musculus with 6 samples.

Results

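The 10 genes that mark dendritic cells, grouped by subset, were followed in mouse inguinal lymph nodes with and without naringin in the diet. They were taken by symbol from the deposited table, and 10 of 10 were found among its 50559 genes. Xcr1 and Batf3 stand for conventional type 1 dendritic cells (cDC1), Ccl17, Ccl22 and Fscn1 for mature and migratory cells, Siglech for plasmacytoid cells, Cd207 for Langerhans cells, and Zbtb46, Flt3 and Itgax for dendritic cells in general. RNA of whole nodes was sequenced in 6 libraries. The 3 Control libraries carry no further description of diet, and the 3 Naringin libraries came from mice fed the citrus flavonoid naringin at 200 mg/kg per day. The sources used here do not give strain, sex, age or the length of feeding for either group. No label ties a library to an animal, so the error measured is the spread between libraries, which may be technical.

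Dendritic cells are the antigen-presenting cells that prime T cells in lymph nodes. The cDC1 subset takes up material from dying cells and presents it to cytotoxic T cells, plasmacytoid cells release type I interferon when they sense viral nucleic acid, and Langerhans cells sit in the epidermis. Cells that mature in the skin travel through lymph vessels to the draining node, guided by the chemokine receptor Ccr7, and switch on a shared set of genes that includes Fscn1, Ccl22 and Ccl17. The node also holds resident dendritic cells that arrive from the blood and depend on the growth factor receptor Flt3.

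Values are CPM, the share of a library's gene-assigned reads scaled to a total of 1000000. The libraries held 13074180 to 14976422 reads, so that a single read was worth 0.0668 to 0.0765 CPM. Control 3 stood apart from the other libraries: it held the highest of the 6 values in 24.0% of the tested genes and the lowest in 36.6%. The T cell marker Cd3e lay between 156 and 248 CPM, while the skin keratin Krt14 was at 0 reads in every library but Naringin 2, where it reached 0.267 CPM. Of the other keratins listed, Krt5 had 1 read, in Naringin 1, but Krt10 was read in every library, at 2.68 to 4.01 CPM. All 10 dendritic cell genes had reads in all 6 libraries, and all 10 passed the filter of a mean of 1 CPM.

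None of the 10 genes was called different between Naringin and Control. In the limma fit over 14873 genes, 0 of 10 passed an adjusted p of 0.05, against 0% of all tested genes, and each had an adjusted p of 0.9996. At an unadjusted p under 0.05 there were 0 of 10, against 1.43% of the tested genes (213 genes). Control and Naringin values overlapped in all 10, where 5.65% of the tested genes had groups that did not overlap. On whole reads recovered from the table, edgeR called 0 genes (232 without adjustment) and DESeq2 called 3, or 0.0202%, which were Cd209f, Cd209g and Fgf23, named here after their values were seen. The fitted log2 folds, taken as naringin minus control on the log2(CPM + 1) scale, ran from -0.56 for Ccl17 to 0.09 for Xcr1. The mean of log2(CPM + 1), here the log2 mean, was lower with naringin in 8 of 10 genes, where 43.3% of the tested genes had a lower one. Counts of higher and lower means below are on that scale too, and CPM means can differ in direction where folds are small. The median log2 fold was -0.18 beside 0.025 over all tested genes. Without Control 3 it was -0.11, still with 8 of 10 lower, and without Naringin 3 it was -0.078 with 6 of 10 lower. The test leaves room for differences: the widest 95% interval, that of Ccl17, ran from 0.44-fold to 1.04-fold, and the narrowest, that of Zbtb46, from 0.866-fold to 1.29-fold. In whole-node RNA, fewer cells of a type and less RNA per cell cannot be told apart.

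**Figure D1:**
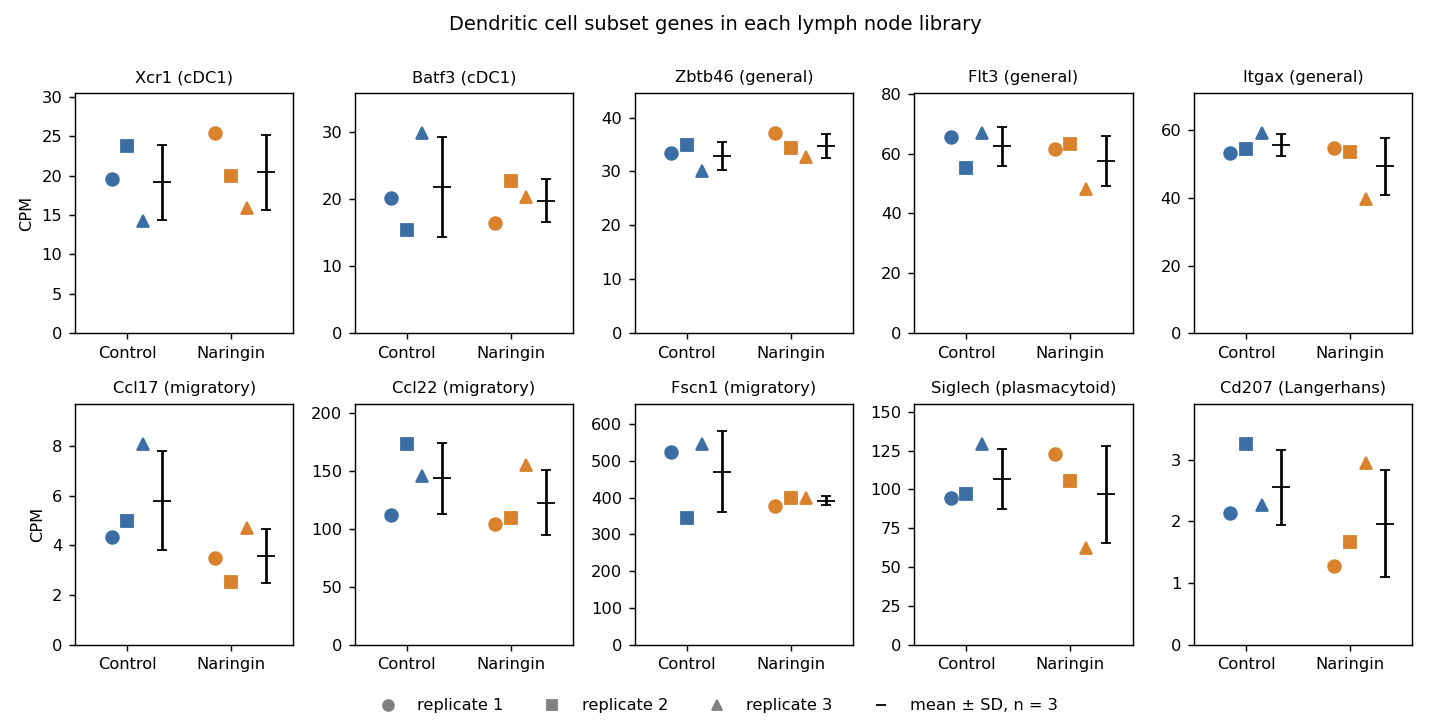
CPM of each of the 10 genes (vertical axes from 0) in the Control and Naringin libraries, with marker shapes for replicates 1 to 3 and black bars for the mean ± SD (n = 3). The groups overlap in every panel, and Fscn1 shows 3 close Naringin values beside widely spread Control values.

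The levels of the 10 genes spanned a wide range once exon length was taken into account. Per kilobase of exon (all exons of the gene in GENCODE M21), the median over the 6 libraries was highest for Fscn1 at 132 CPM per kb, followed by Ccl22 at 55.4 and Siglech at 30.0 CPM per kb. Neither Fscn1, from 114 to 181 CPM per kb, nor Ccl22, from 44.7 to 74.4, overlapped its neighbour in that order. Siglech, at 18.4 to 38.2 CPM per kb, just met Batf3, at 9.60 to 18.7. Batf3, Itgax, Flt3 and Ccl17 followed with medians of 12.7, 11.2, 10.1 and 8.81 CPM per kb, and their ranges overlapped. Xcr1 at 4.44 and Zbtb46 at 3.99 CPM per kb had overlapping ranges as well. Cd207 was lowest at 1.45 CPM per kb, and its highest library, at 2.14, lay under the lowest Zbtb46 value of 3.53.

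Among the cDC1 genes, Xcr1 encodes the receptor for the chemokine Xcl1, through which cytotoxic T cells and natural killer cells draw these cells in. Xcr1 stood at 19.6, 23.7 and 14.2 CPM in Control 1, 2 and 3 and at 25.4, 20.0 and 15.9 CPM in Naringin 1, 2 and 3. The highest value was in a Naringin library and the lowest in Control 3. The Control mean was 19.2 ± 4.75 CPM and the Naringin mean 20.4 ± 4.76 CPM (SD, n = 3 each), and the log2 fold was 0.09 with a 95% interval of -0.43 to 0.61. The sign rested on single libraries, since the log2 fold was -0.10 without Control 3 and -0.072 without Naringin 1, but 0.25 without either Control 2 or Naringin 3.

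Batf3, the transcription factor that cDC1 need to develop and that activated T cells also express, did not differ between the groups beyond their spread. It measured 20.2, 15.3 and 29.8 CPM in the Control libraries and 16.3, 22.6 and 20.2 CPM in the Naringin libraries. Control 3 was the highest and Control 2 the lowest, so the Naringin values all lay inside the Control range. The log2 fold was -0.10, with a 95% interval of -0.65 to 0.45, and it turned to 0.15 without Control 3 and 0.026 without Naringin 1, and was -0.31 without Control 2 and -0.20 without Naringin 2. The 2 cDC1 genes did not rank the libraries alike: Control 3 had the most Batf3 and the least Xcr1, and Naringin 1 and Control 2 had the most Xcr1 and the least Batf3. The CPM ratio of Batf3 to Xcr1 therefore ran from 0.644 in Naringin 1 to 2.09 in Control 3. By contrast, the ratio of Xcr1 to Clec9a, a receptor for dead cells that marks cDC1, stayed between 0.668 in Control 3 and 1.01 in Naringin 2.

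The general genes were the steadiest of the set. Zbtb46, a zinc finger factor of conventional dendritic cells that is also made in endothelium, lay at 33.5, 35.0 and 30.0 CPM in Control and at 37.1, 34.4 and 32.7 CPM in Naringin. Its highest library exceeded its lowest by 1.24-fold, the smallest ratio among the 10 genes. The log2 fold of 0.08 had a 95% interval of -0.21 to 0.37, the narrowest of the 10. It was 0.019 without Control 3 and 0.033 without Naringin 1, and 0.13 and 0.12 without Control 2 and Naringin 3.

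Flt3, the growth factor receptor that sustains dendritic cells and their precursors, stood at 65.5, 55.0 and 66.8 CPM in the Control libraries. The Naringin libraries had 61.4, 63.2 and 48.0 CPM, of which only Naringin 3 lay under the Control range. The log2 fold was -0.12 (95% interval -0.47 to 0.22), and it ran from -0.21 without Control 2 to 0.0015 without Naringin 3, with -0.071 without Control 3 and -0.19 without Naringin 2. Itgax, the integrin chain known as CD11c, is carried by dendritic cells and also by some macrophages, natural killer cells and B cells. It held 53.2, 54.4 and 59.1 CPM in Control and 54.8, 53.6 and 39.7 CPM in Naringin, with Naringin 3 again alone below the others. Its log2 fold was -0.18 (95% interval -0.53 to 0.17), and -0.04 without Naringin 3.

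The 3 migratory genes all had lower means with naringin, and none of them passed the test. Ccl17, a chemokine that draws in T cells through the receptor Ccr4, measured 4.36, 4.99 and 8.09 CPM in Control and 3.48, 2.54 and 4.69 CPM in Naringin. Naringin 1 and 2 lay below every Control library, whereas Naringin 3 lay above Control 1. Means were 5.81 ± 2.00 and 3.57 ± 1.08 CPM (SD, n = 3 each). The log2 fold of -0.56 ± 0.27 (SE) was the largest in size among the 10 genes, with an unadjusted limma p of 0.0697 and a 95% interval of -1.18 to 0.06. Its size was above that of 98.9% of the tested genes. The log2 fold was -0.34 without Control 3 and -0.39 without Naringin 2, and -0.74 and -0.72 without Naringin 3 and Control 1. The gene is sparsely read, with 38 reads in Naringin 2 and 121 in Control 3, and exact Poisson 95% intervals of 1.80 to 3.48 and 6.71 to 9.66 CPM, which cover counting error only.

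Ccl22 acts on the same receptor and is made by mature dendritic cells in larger amounts. It stood at 112, 173 and 146 CPM in Control and at 104, 109 and 155 CPM in Naringin. Naringin 3 was above Control 1 and 3, and the log2 fold of -0.23 had a 95% interval of -0.70 to 0.25. It was -0.080 without Control 2 and -0.12 without Naringin 1, and -0.39 and -0.40 without Control 1 and Naringin 3. The CPM ratio of Ccl22 to Ccl17 was 25.6, 34.7 and 18.0 in the Control libraries and 29.8, 43.0 and 33.0 in the Naringin libraries, so the groups overlapped in this measure too. Both chemokines thus had a lower mean with naringin, but they did not keep a constant proportion from library to library.

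Ccl22 and Ccl17 lie close together on mouse chromosome 8 with a single protein-coding gene, Cx3cl1, between them in RefSeq. The 250 bases upstream of each start are shown because these neighbours share a receptor and a subset but differed in level and in their order of libraries. Letters were searched on both strands for kB (GGGNNNNNCC), STAT6 (TTCNNNNGAA), AP-1 (TGANTCA) and PU-box (GAGGAA) motifs, and capitals mark every match. The sequences are RefSeq's for GRCm38.p6, an older build than the mm39 of the submitters' processing notes, and both are on the plus strand, at chr8:94810203-94810452 for Ccl17 and chr8:94745434-94745683 for Ccl22.
Ccl17: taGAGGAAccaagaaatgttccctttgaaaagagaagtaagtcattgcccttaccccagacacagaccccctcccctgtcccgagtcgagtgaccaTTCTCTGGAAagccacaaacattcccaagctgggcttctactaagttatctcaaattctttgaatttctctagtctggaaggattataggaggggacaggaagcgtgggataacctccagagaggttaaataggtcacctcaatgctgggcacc
Ccl22: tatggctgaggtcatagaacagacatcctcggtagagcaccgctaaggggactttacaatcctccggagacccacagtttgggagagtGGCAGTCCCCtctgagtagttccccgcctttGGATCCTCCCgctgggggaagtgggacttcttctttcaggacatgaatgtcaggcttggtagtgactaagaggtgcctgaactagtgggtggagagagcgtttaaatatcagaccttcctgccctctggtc
Ccl17 held 1 STAT6 and 1 PU-box match and no kB match, and Ccl22 held 2 kB matches and none of the others. No matches overlapped in either window. Over all 32851 RefSeq windows of this length, 5.85% held the STAT6 letters, 45.8% the kB letters, 6.75% the AP-1 letters and 23.3% the PU-box letters. Among the 10 genes, all of which matched a window, 2 held STAT6, 3 kB, 3 AP-1 and 3 PU-box letters. A match is a description of the letters and not evidence of binding.

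Fscn1 encodes the actin-bundling protein fascin, which gives mature dendritic cells their long processes and is also made in endothelium. It was the most abundant of the 10 and made up 65.9% to 81.9% of the summed CPM of the migratory genes. Control libraries had 524, 343 and 545 CPM and Naringin libraries 377, 399 and 398 CPM. All Naringin values lay between Control 2 and Control 1. The means were 471 ± 111 and 391 ± 12.3 CPM (SD, n = 3 each), with a log2 fold of -0.24 and a 95% interval of -0.67 to 0.19. The log2 fold was -0.12 without Control 3, -0.15 without Control 1 and -0.45 without Control 2.

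Siglech, a lectin of plasmacytoid cells that is also found on some macrophages, differed more within the Naringin group than between groups. It measured 94.4, 97.0 and 129 CPM in Control and 123, 106 and 62.3 CPM in Naringin. Naringin 1 and 2 lay inside the Control range and Naringin 3 below it. The log2 fold was -0.18 with a 95% interval of -0.76 to 0.40, and 0.11 in the other direction without Naringin 3. It was -0.038 without Control 3 and -0.38 without Naringin 1. Naringin 3 was also the library with the lowest summed level of the macrophage list, at 964 CPM, where Control libraries ranged from 1229 to 2542 CPM and Naringin libraries from 964 to 2617 CPM. Of those 9 macrophage markers, 8 were tested, 5 had a lower and 3 a higher log2 mean with naringin, and 0 passed. Vsig4 was at 0 reads in every library but Naringin 3, where it had 1. Naringin 3 also had the lowest sums of the monocyte, lymphatic endothelium and adipocyte lists, at 2261, 62.1 and 5.18 CPM. Its B cell list sum, at 3360 CPM, was the highest, and its T cell list sum of 1617 CPM was neither. The part of macrophage or other cells' RNA in the Siglech, Itgax and Flt3 values of Naringin 3 was not tested.

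Cd207 (langerin) is the lectin that forms the Birbeck granules of Langerhans cells and is also carried by some cDC1. It was the rarest of the 10, with 19 to 45 reads in a library. Levels were 2.14, 3.25 and 2.27 CPM in Control and 1.27, 1.67 and 2.94 CPM in Naringin. Naringin 1 and 2 lay below the Control range and Naringin 3 within it. The log2 fold was -0.29, with a 95% interval of -0.88 to 0.30. It was -0.12 without Naringin 1, -0.15 without Control 2 and -0.52 without Naringin 3. Exact Poisson 95% intervals reached from 0.766 to 1.99 CPM in Naringin 1, the lowest library, and from 2.37 to 4.35 CPM in Control 2, the highest. Epcam, an adhesion molecule of Langerhans cells and epithelia, lay between 4.19 and 6.93 CPM, with a log2 fold of 0.17 that ran from 0.053 without Control 2 to 0.30 without Naringin 1 or Control 3, and was 0.069 without Naringin 3.

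**Figure D2:**
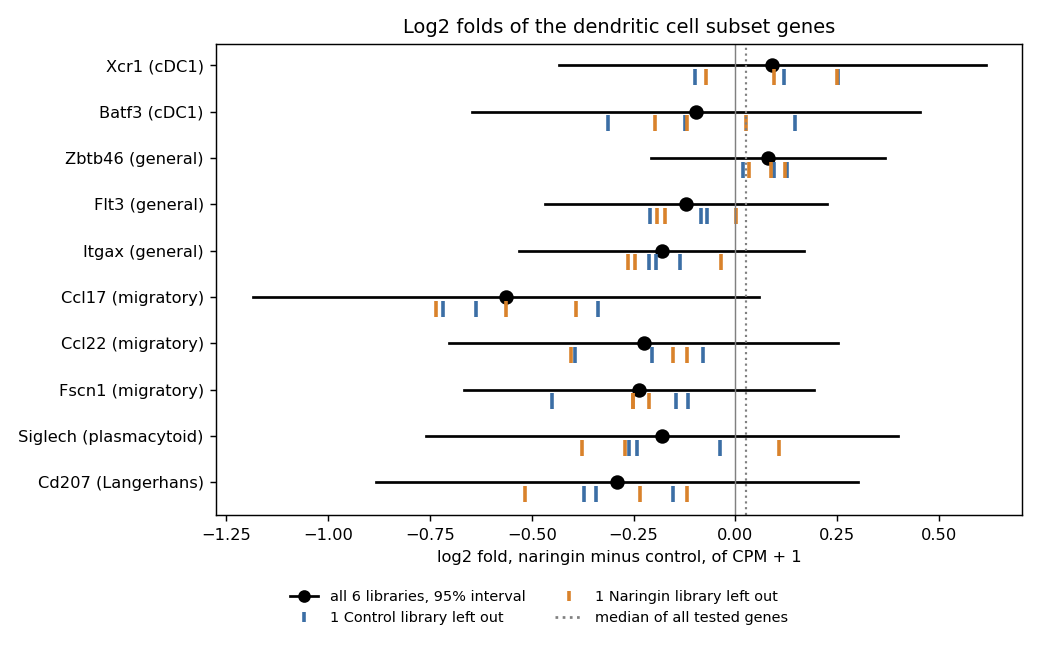
Log2 folds (naringin minus control, horizontal axis, on the log2(CPM + 1) scale) of the 10 genes with limma's 95% intervals as black lines, and ticks for the fits that leave out a Control (blue) or a Naringin (orange) library. All 10 intervals include 0, and the ticks of Xcr1, Batf3, Flt3 and Siglech fall on both sides of it.

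Taken by subset, the cDC1 genes summed to 39.8, 39.0 and 44.0 CPM in the Control libraries and to 41.7, 42.6 and 36.1 CPM in the Naringin libraries. The general genes summed to 151 ± 5.90 CPM and 142 ± 18.4 CPM (SD, n = 3 each). The migratory genes summed to 641, 521 and 699 CPM in Control and to 484, 510 and 558 CPM in Naringin, with Control 2 inside the Naringin range. Median log2 folds were -0.0033 for the 2 cDC1 genes, -0.12 for the 3 general genes and -0.24 for the 3 migratory genes, beside -0.18 for Siglech and -0.29 for Cd207. Differences between subsets were not tested. Of the 10 genes, 6 had their highest value in Control 3 and 3 their lowest in Naringin 3, where 24.0% and 14.0% of the tested genes did so. The 6 were Batf3, Flt3, Itgax, Ccl17, Fscn1 and Siglech, all among the 8 with a lower mean.

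**Figure D3:**
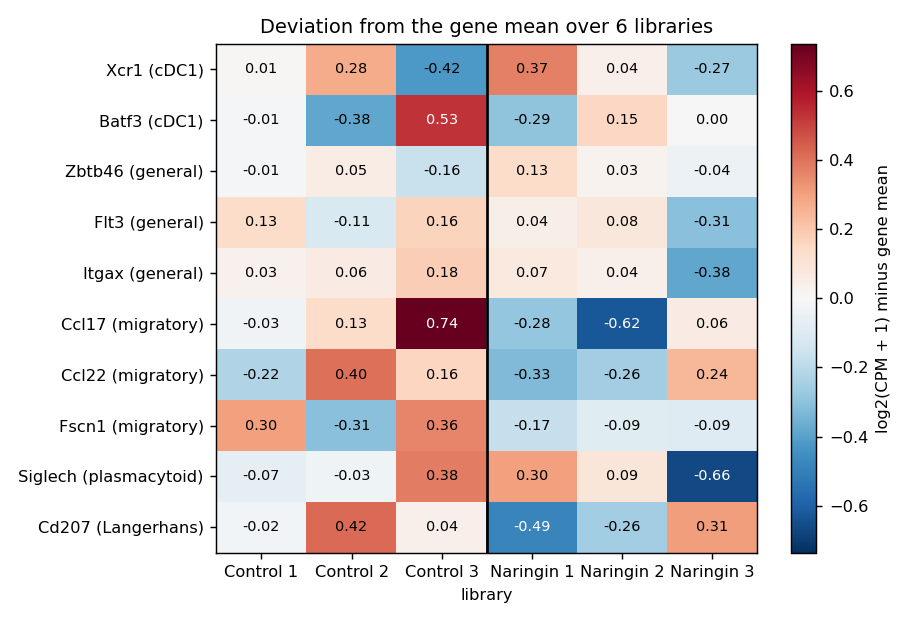
Deviation of log2(CPM + 1) from each gene's mean over the 6 libraries (rows, genes with their subset; columns, libraries; color and printed values, log2 units). Control 3 is high for Ccl17, Batf3, Siglech and Fscn1 and low for Xcr1, and Naringin 3 is low for Siglech, Itgax and Flt3.

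The ligands and receptors that pair with these genes gave no call. Flt3l, the ligand of Flt3, had a Control mean of 98.2 ± 5.09 CPM, a Naringin mean of 91.9 ± 7.34 CPM and a log2 fold of -0.10, which was -0.16 without Naringin 3, -0.054 without Control 2 and -0.042 without Naringin 2. Xcl1, the ligand of Xcr1, had a log2 fold of -0.16, which was -0.022 without Control 3 and -0.32 without Control 2. Ccr4, the receptor for Ccl17 and Ccl22, averaged 14.8 ± 1.69 and 13.7 ± 2.00 CPM, a log2 fold of -0.11 that was 0.0083 without Naringin 2, -0.028 without Control 1 and -0.18 without Control 3 or Naringin 3. The integrin chain Itgb2, which pairs with Itgax, had means of 329 ± 9.03 and 329 ± 43.9 CPM (SD, n = 3 each), and its log2 fold of -0.010 ran from -0.11 without Naringin 1 to 0.078 without Naringin 3. Ccl19 and Ccl21a, the stromal chemokines that guide Ccr7-bearing cells into the node, both had a log2 fold of -0.16, which became 0.12 for Ccl19 and 0.054 for Ccl21a without Control 3, and -0.34 and -0.41 without Control 1. Without Naringin 1 they were at -0.086 and -0.058, Ccl19 was at -0.27 without Control 2, and Ccl21a was at -0.24 without Naringin 3. In all, 6 of 6 had lower means, 0 passed, and the median log2 fold was -0.13, or -0.021 without Control 3.

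A wider set of 73 companion genes, those 6 ligands and receptors included, divided evenly. Several, such as Irf8, Irf4, Tlr7 and Dpp4, are also expressed by other cells of the node, whose part was not tested. Of 72 tested, 36 had higher and 36 lower log2 means, the median log2 fold was 0.0053, and 0 passed in either direction. Groups did not overlap in 4 of 72 (5.56%), 2 higher and 2 lower, where 3.36% of all tested genes were separated with higher and 2.29% with lower Naringin values. An unadjusted limma p under 0.05 was found for 1 higher and 1 lower companion, against 0.975% and 0.457% of all tested genes.

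Of 10 further cDC1 genes, 8 had higher means and 2 lower, with a median log2 fold of 0.14, or 0.059 without Naringin 1, and 0 calls. The 2 lower were Clec9a, with a log2 fold of -0.043, and Itgae, with -0.084. Tlr3, a sensor of double-stranded RNA, had means of 14.3 ± 1.44 and 19.1 ± 5.35 CPM in Control and Naringin (log2 fold 0.36, with 0.18 without Naringin 1 and 0.58 without Naringin 3). Irf8, the factor that specifies cDC1 and is abundant in B cells, was at 356, 360 and 391 CPM in Control and 399, 429 and 399 CPM in Naringin, so the groups did not overlap (log2 fold 0.15). Nfil3, a factor upstream in cDC1 development, had a log2 fold of 0.28, which was 0.10 without Control 2 and 0.50 without Control 3. B cell markers, which share Irf8, were higher in mean in 5 of 5, with a sum of 2591 to 2841 CPM in Control and 2613 to 3360 CPM in Naringin. The part of B cell RNA in the Irf8 values was not tested.

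The list for type 2 conventional dendritic cells (cDC2) had no member among the 10. It held 5 lower and 4 higher log2 means of 9 tested, with a median log2 fold of -0.011 and 0 calls. That median changed sign with the libraries, from -0.15 without Naringin 1 to 0.12 without Naringin 3. Cd209a, a lectin related to DC-SIGN, measured 15.2, 21.2 and 17.0 CPM in Control and 10.8, 15.0 and 10.1 CPM in Naringin, with a log2 fold of -0.55 and an unadjusted limma p of 0.024. Mgl2, a galactose-binding lectin of cDC2, measured 9.03, 13.2 and 11.4 CPM and 8.38, 8.95 and 6.86 CPM, with a log2 fold of -0.42. In both, every Naringin value was under every Control value, narrowly so for Naringin 2. Irf4, which cDC2 need to mature and which lymphocytes also express, had a log2 fold of 0.19, with 0.020 without Control 3, 0.13 without Naringin 2 and 0.30 without Control 2.

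Of 18 migratory and mature companions, 11 had lower and 7 higher means, with a median log2 fold of -0.032 and 0 calls. The median ran from -0.069 without Control 2 to 0.034 without Control 3. Cacnb3, a calcium channel subunit found in mature dendritic cells, averaged 204 ± 37.0 and 171 ± 2.76 CPM (log2 fold -0.23, with -0.15 without Control 3 and -0.39 without Control 2). Apol7c, an apolipoprotein L family member of activated dendritic cells, averaged 332 ± 99.6 and 264 ± 20.7 CPM (log2 fold -0.28, with -0.088 without Control 3 and -0.54 without Control 2). Cd80, a co-stimulatory ligand for T cells, had a log2 fold of 0.24, which was 0.11 without Naringin 1, 0.12 without Control 2 and 0.43 without Naringin 3. The median of these companions was thus nearer to that of all tested genes, 0.025, than to the -0.24 of Ccl17, Ccl22 and Fscn1; the difference was not tested.

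Plasmacytoid companions had higher means in 8 of 12, with a median log2 fold of 0.13 and 0 calls. The 4 lower were Ptprs and, with log2 folds of -0.19, -0.28 and -0.22, Runx2, Cox6a2 and Pacsin1. The part of other cells' RNA in this list was not tested. Leaving out Control 3 gave a median of -0.059, leaving out Control 2 gave 0.073 and leaving out Control 1 gave 0.23. Tlr7, a receptor for single-stranded RNA that B cells and macrophages also carry, stood at 31.1, 27.0 and 31.3 CPM in Control and 52.6, 54.9 and 31.9 CPM in Naringin. Its log2 fold was 0.59 with an unadjusted limma p of 0.022, and Naringin 3 exceeded the highest Control library only slightly. Irf7, the interferon regulatory factor that plasmacytoid cells hold ready and that interferon induces in most cells, had a log2 fold of 0.62, with 0.30 without Control 2 and 0.96 without Control 3. Ptprs, a phosphatase found on plasmacytoid cells, had -0.21.

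The 6 Langerhans companions had 4 lower and 2 higher log2 means. Their median log2 fold was -0.030, which ran from -0.057 without Control 2 to 0.13 without Control 3. Among them were Ahr, a receptor for dietary and environmental ligands, at 0.33 and Runx3, a factor needed by Langerhans cells and cytotoxic T cells, at -0.06. The log2 fold of Ahr was 0.061 without Naringin 1, 0.15 without Control 3 and 0.61 without Naringin 3, and that of Runx3 ran from -0.27 without Control 3 to 0.13 without Control 1. General companions had 7 higher and 4 lower means of 11, with a median of 0.080, which was 0.0076 without Control 2 and 0.010 without Naringin 1. Among them the peptidase Dpp4, also carried by T cells, the kynurenine pathway enzyme Kmo and the cytokine receptor chain Csf2ra had log2 folds of 0.22, 0.20 and -0.15. Dpp4 and Kmo were at 0.056 and 0.028 without Control 3, Kmo at 0.33 without Control 2 and 0.079 without Naringin 2. Csf2ra was at -0.26 without Naringin 1, -0.089 without Control 3 and -0.064 without Naringin 3. T cell markers, beside these, had lower means in 6 of 6, with sums of 1508 to 1718 CPM in Control and 1245 to 1617 CPM in Naringin.

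**Figure D4:**
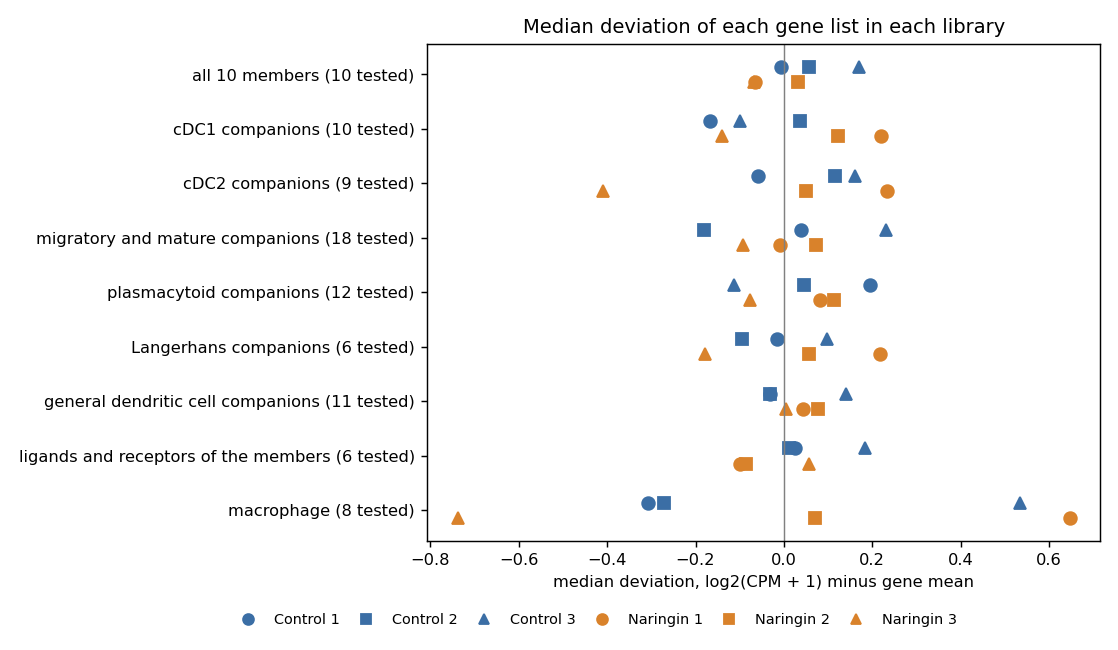
Median deviation of log2(CPM + 1) from the gene mean (horizontal axis) over the tested genes of the 10 dendritic cell genes, their 7 companion lists and the macrophage list in each library, Control in blue and Naringin in orange with shapes for replicates. The groups overlap in every list shown, and among these 9 rows the macrophage list spreads furthest, from -0.74 in Naringin 3 to 0.65 in Naringin 1.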

How the data were processed

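Per the submitters' processing notes, the tools included STAR 2.7.9a, Trimmomatic 0.39, Subread 1.6.0 with featureCounts, and edgeR 3.40.0, on the build mm39. No source used here gives the annotation or strand setting, so overlapping and antisense genes may share reads. The deposited values are CPM: each column summed to 1000000, and 100% of values above 0 were whole multiples of a single read within 0.01 of a read. Values were analysed as log2(CPM + 1), which understates changes of low genes. A mean of 1 CPM or more over the 6 libraries was required, and limma 3.58.1 under R 4.3.3 was used (trend, robust, 2-sided, Benjamini-Hochberg over 14873 genes, threshold 0.05); intervals are limma's, and SDs are over 3 libraries. Count tests on recovered reads used edgeR 4.0.16 and DESeq2 1.42.0. The steps were tested on simulated reads with changes larger than any fitted for the 10 genes, so recovery of changes as small as theirs was not tested. The 10 genes and all lists were chosen with earlier results of these data known. Named companions are the ligands and receptors and, per list, the 3 members with the smallest p. Clec9a, Itgae, Runx2, Cox6a2, Pacsin1, Cd3e, Krt14, Krt5, Krt10 and Vsig4 were added after their values were seen. Exon lengths are from GENCODE M21 and upstream sequences from RefSeq (GRCm38.p6). The alternatives were other pseudocounts, filters, scalings and tests, a replicate block, and leaving out each library.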

Additional observations from a re-analysis of the deposited data

How the results depend on the processing

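Over 16 alternatives, the 10 dendritic cell genes gave 158 log2 folds, of which 152 kept their direction and 0 passed an adjusted p of 0.05. The smallest adjusted p was 0.715, for Ccl17 in limma without Control 3. Pseudocounts of 0.5 and 0.1, TMM and upper-quartile scaling, edgeR and DESeq2 turned no direction. Other filters, limma without trend and the replicate block leave a gene's log2 fold unchanged by construction. Their share of the 152 is therefore no sign of stability. A minimum mean of 5 CPM left out Ccl17 and Cd207. DESeq2 called 3 genes in place of 0, and limma called 0 to 1 genes when single libraries were left out, the 1 being Cxcr4 without Control 3; the cause was not tested. The median log2 fold of the 10 genes ran from -0.22 to -0.078 when single libraries were left out, lowest without Naringin 2 and highest without Naringin 3. Directions turned in such fits for Xcr1 (-0.10 to 0.25), Batf3 (-0.31 to 0.15), Flt3 (-0.21 to 0.0015), Siglech (-0.38 to 0.11), Ccr4 (-0.18 to 0.0083), Itgb2 (-0.11 to 0.078), Ccl19 (-0.34 to 0.12), Ccl21a (-0.41 to 0.054) and Runx3 (-0.27 to 0.13). With a replicate block, 0 genes were called, and the median of -0.18 could not change. Libraries of the same number did not deviate together (r over genes of -0.26, -0.02 and -0.27 for numbers 1, 2 and 3), so the numbers were not taken as pairs. Depth limits Cd207 and Ccl17, which had at most 45 and 121 reads in a library.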
